A study of Mus musculus with 12 samples.

Results

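Bivalent regions were taken as the regions of the H3K4me3 list of the female KDM6A-WT line that shared at least 1 bp with a region of the H3K27me3 list of that line. They numbered 3924 of 24492 H3K4me3 regions (16.0%), covered 8.70 Mb, and were compared with the 20568 H3K4me3 regions that met no H3K27me3. The members were thus chosen by the overlap of those 2 lists, and their H3K27me3 overlap and H3K4me3 reads are a description only. The H3K27ac, H3K4me1, KDM6A and MLL4 lists took no part in the choice. H3K4me3 and H3K27me3 were listed for that line only, so whether the same regions are bivalent in the other 3 lines was not analysed here.

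Trimethylation of lysine 4 of histone H3 is found at promoters and CpG islands, and trimethylation of lysine 27, written by Polycomb repressive complex PRC2, marks repressed chromatin. Their combination, called bivalent, is best known from embryonic stem cells, where it lies at promoters of silent developmental genes. Acetylation of the same lysine 27, the mark H3K27ac of active promoters and enhancers, cannot sit on a histone tail that is trimethylated there. KDM6A removes methyl groups from lysine 27, and MLL4 (KMT2D), its partner in one complex, writes H3K4me1, the mark of enhancers and of promoter flanks. Overlap of region lists does not show that marks share a nucleosome, an allele or a cell.

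The lines came from mouse pancreatic tumours and were grown untreated in F12/DMEM medium with EGF. H3K4me3, H3K27me3 and H3K27ac were listed for female KDM6A-WT, KDM6A and MLL4 (antibody field KMT2D) for female KDM6A-WT and KDM6A-KO, and H3K4me1 for KDM6A-WT and KDM6A-KO lines of both sexes. All labels, WT included, describe a line from a tumour null for K6A, so WT and KO are used as the genotype field gives them. The labels do not say which Cre or promoter drove the tumours, the number of clones, or the age of the animals. Each group was 1 library, so no difference was tested and none has a replicate check. Brackets hold exact 95% binomial intervals over regions, which cover counting error only, and regions are not replicates. Listed regions held between 108165 (MLL4 in WT) and 17526099 (H3K4me3) reads, and the H3K4me1 lists held 56076 (female WT), 35041 (female KO), 64247 (male WT) and 49780 (male KO) regions. Positions are in mm9. No gene was assigned and no sequence is shown, since no annotation or genome of that build was used here.

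The members lay on H3K27me3 in several ways. Of the 3924, 2489 (63.4%) lay wholly inside H3K27me3, 462 (11.8%) had at least 50% of their length inside, and 973 (24.8%) less. By borders, 1352 members crossed a single H3K27me3 border, 25 held a whole H3K27me3 region within their length, and 58 met several H3K27me3 regions. Members wholly inside were short, with a median of 1400 bp, and took up a median of 12.1% of an H3K27me3 region whose own median length was 12200 bp. Few of them, 5.30%, touched the border of that region. At the limit of the rule, the 190 members with the smallest overlap of 200 bp had a median of 639.5 H3K4me3 reads, and H3K27ac overlapped 80.5% of them. The 167 H3K4me3 regions directly adjoining H3K27me3 without overlap had a median of 530 reads and an H3K27ac share of 79.0%. Regions on either side of the limit thus had similar values, and H3K27ac met both far more often than the members wholly inside.

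H3K27ac overlapped fewer of the bivalent regions than of the H3K4me3 regions in general. It met 1857 members (47.3% [45.8 to 48.9]), where 82.9% of all H3K4me3 regions and 89.6% [89.2 to 90.0] of those without H3K27me3 were met. The share depended on the position relative to H3K27me3. It was 27.6% [25.8 to 29.4] for members wholly inside, 66.2% [61.7 to 70.5] for those at least 50% inside and 88.9% [86.8 to 90.8] for those less than 50% inside. The last value lies close to that of H3K4me3 regions without H3K27me3, but these members were longer, with a median of 3200 bp against 2600 bp. The H3K27ac share also differed with the length of the region. Among short regions (up to 1800 bp) H3K27ac met 17.7% [16.1 to 19.4] of the members and 71.8% [70.7 to 72.9] of the others. For middle regions (2000 to 3400 bp) the values were 73.1% and 97.1%, and for long ones 96.9% and 99.8%. Members were thus below the others within each length class, by the widest margin among short regions.

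The plot of marks around region centres shows the same classes. Around the 1803 members wholly inside and without H3K27ac, H3K27me3 covered 85.6% at 2 kb to the left of the centre and still 53.6% at 10 kb, and H3K27ac covered 0.555% and 4.22%. The 686 members wholly inside with H3K27ac had almost the same H3K27me3 surroundings, at 86.6% and 48.0%, and H3K27ac over a narrow stretch that covered 97.8% of centres and 7.43% at 2 kb. Partly inside members with H3K27ac had less H3K27me3 at the centre, which the split favours, since they are by definition not wholly covered. H3K27me3 covered 24.5% of their centres and 51.0% at 2 kb to the left. Of all 1435 partly inside members, 1352 crossed a single H3K27me3 border, so most met it on 1 side.

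**Figure D1:**
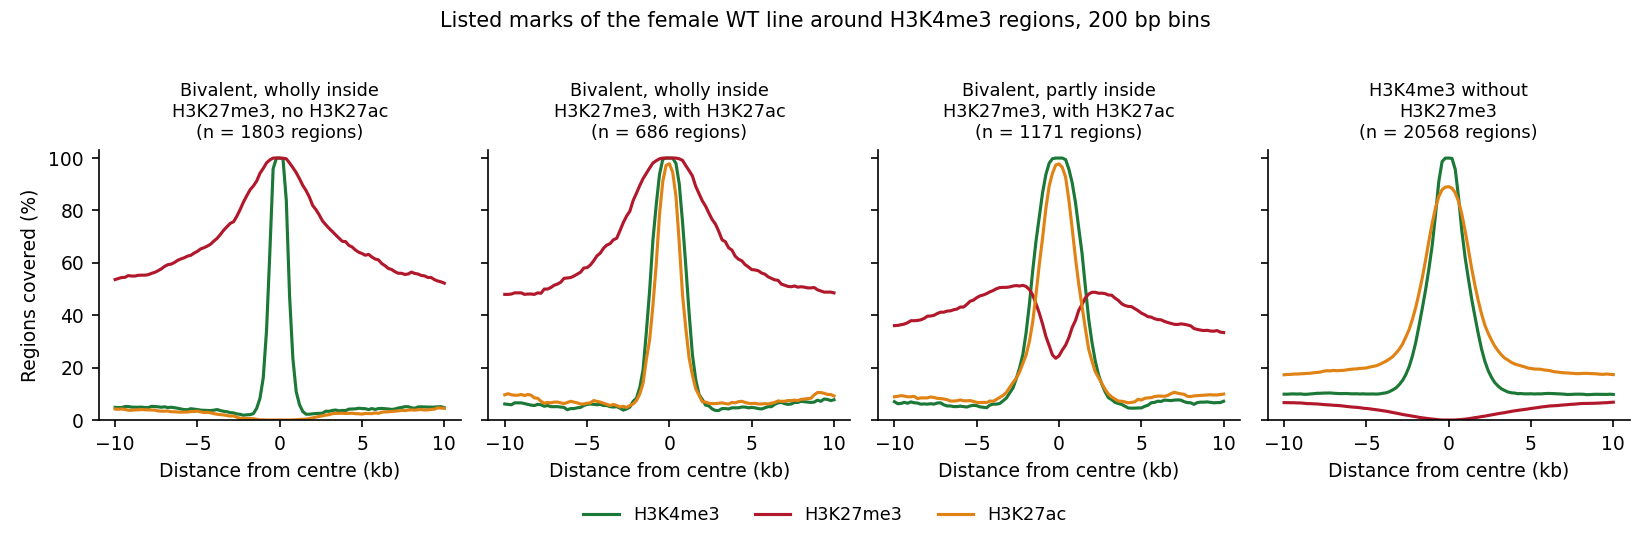
Share of regions covered by the H3K4me3, H3K27me3 and H3K27ac lists of female WT (vertical axis, %) in 200 bp bins by distance from the region's centre (horizontal axis, kb), for 3 classes of bivalent regions and for H3K4me3 regions without H3K27me3. H3K27me3 peaks at the centre of members wholly inside it, which the split sets. It dips to 24.5% at the centre of partly inside members with H3K27ac, which the split favours by leaving out wholly covered members.

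H3K4me3 reads per kb of region had a median of 118.6 over all members and 131.2 over the whole list, with 47.0% of the members above the list median. The classes differed more. The median was 65.0 for members wholly inside without H3K27ac, 198.2 for those wholly inside with H3K27ac and 301.3 for those less than 50% inside with H3K27ac. The list median was exceeded by 14.6% of the first class and 75.1% of the second. H3K4me3 regions without H3K27me3 and without H3K27ac had a median of 55.0, with 8.95% above the list median. The H3K27ac difference was nevertheless present among regions of like read density. In the lowest of 4 classes of the list by reads per kb, H3K27ac met 11.8% of 844 members and 81.4% of 5304 others. In the next it met 18.6% of 1237 members and 80.3% of 4868 others, then 74.9% and 96.1%. In the highest class almost all regions had it, at 99.3% of 599 members and 99.96% of the others.

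**Figure D2:**
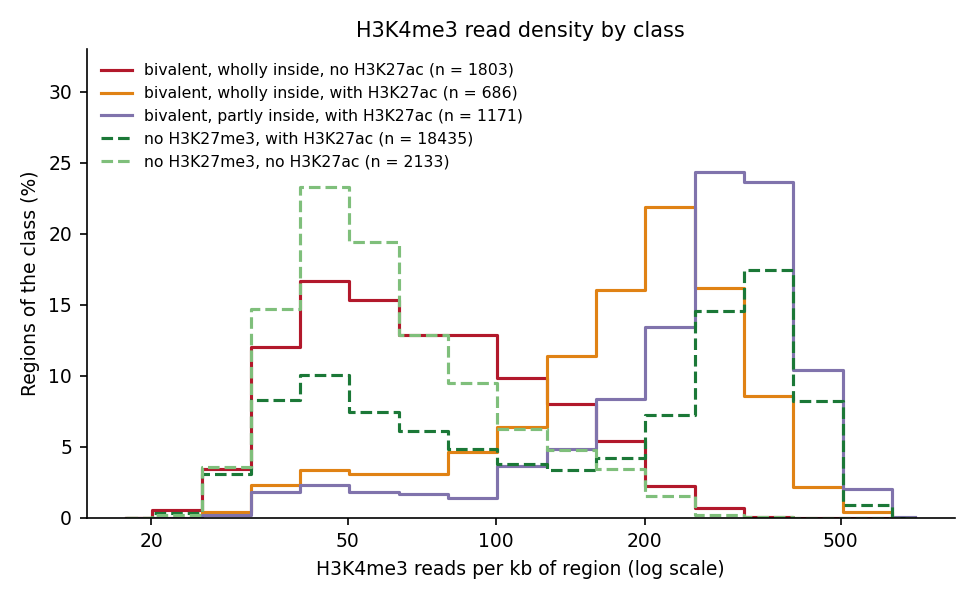
Distribution of H3K4me3 reads per kb of region (horizontal axis, log scale) as the share of each class in each bin (vertical axis, %). Members wholly inside H3K27me3 without H3K27ac lie mostly below the list median of 131.2, with a class median of 65.0, and members with H3K27ac mostly above it.

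Some members without H3K27ac nevertheless had strong H3K4me3. The leading one, chr12:84825601-84830400, held 1305 H3K4me3 reads over 4800 bp inside an H3K27me3 region of 27.2 kb with 1005 reads. H3K4me1 regions there held 45 reads in female WT, 153 in male WT and 269 in male KO, and female KO listed none. Next came chr3:127334601-127338600 with 1020 reads and chr1:180457201-180461600 with 827, inside H3K27me3 regions of 25 and 21.2 kb. Both were overlapped by H3K4me1 in all 4 lists. Neither KDM6A nor MLL4 was listed in either line at any of the 5 leading members wholly inside without H3K27ac. Both were rare over all 1803 members of that class, each at 0.166% in WT and 0.333% in KO, so their absence from 5 members is not particular to these.

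With H3K27ac, the leading member wholly inside was chr5:52503801-52508200, with 2015 H3K4me3 reads, an H3K27ac region of 153 reads and an H3K27me3 region of 19.2 kb. H3K4me1 regions there held 168 reads in female WT, 246 in female KO, 125 in male WT and 196 in male KO. At chr5:29802201-29806600, with 1852 H3K4me3 reads, H3K4me1 was listed in female KO, male WT and male KO with 122, 89 and 221 reads and not in female WT. The partly inside members with the most reads were of another kind. Chr11:69220401-69234800 spanned 14.4 kb with 6799 H3K4me3 reads and an H3K27ac region of 2204 reads, and only 4.17% of it lay inside H3K27me3. All 5 leading members of that class had at most 10% of their length inside.

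Seen from the H3K27me3 side, longer regions more often held a member. Of 30556 H3K27me3 regions, 3518 (11.5%) held a member, and these had a median length of 9000 bp against 5800 bp for the others. The share with a member lay between 6.55% and 8.62% in the shorter 6 of 10 length classes and reached 29.4% [27.8 to 31.1] among regions of 17200 bp or more. Per Mb of H3K27me3 the longest class held the fewest, 12.8 members against 31.4 in the shortest. More than 1 member was found in 377 regions and at least 5 in 7.

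The largest number, 8 members, lay in chr6:52088601-52232600, a region of 144 kb with 6085 H3K27me3 reads. All 8 were wholly inside, and 4 overlapped H3K27ac. The strongest, chr6:52160401-52165000, held 821 H3K4me3 reads and H3K4me1 regions of 102 reads in female WT, 128 in female KO, 179 in male WT and 92 in male KO. Its neighbours were weaker, from 29 to 220 reads. Of the 8, H3K4me1 met 3 in female WT, 2 in female KO, 4 in male WT and 5 in male KO. In chr1:74062001-74171800, with 5 members, H3K4me1 met all 5 in both WT lines, 1 in female KO and 2 in male KO. In chr1:74803801-74860600, also with 5 members, all 5 carried H3K27ac and H3K4me1 in each of the 4 lists. H3K27me3 domains with several members thus differed in their active marks.

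Chromosomes differed in how many H3K4me3 regions were bivalent. The share was 7.01% [5.27 to 9.12] on chromosome 16 and 7.73% [5.79 to 10.1] on X, and 20.2% on chromosome 6 and 20.3% [18.5 to 22.1] on 11. H3K27me3 covered 2.93% of the span of chromosome 16, 1.42% of X and 19.6% of 11. The rule itself ties the share to the extent of H3K27me3, so these values are a description only. Chromosome 16 had more H3K27me3 than X and a lower share. Of the 50 members on X, 18.0% overlapped H3K27ac, beside 47.3% of all members. The share for the other H3K4me3 regions on X is not given here.

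H3K4me1 was next compared between genotypes at the members. In the female lines it met 2475 members in WT (63.1% [61.5 to 64.6]) and 2227 in KO (56.8% [55.2 to 58.3]). In the male lines it met 2488 in WT (63.4% [61.9 to 64.9]) and 3242 in KO (82.6% [81.4 to 83.8]). Over all H3K4me3 regions the corresponding shares were 81.1%, 77.8%, 82.9% and 90.8%. The KO list therefore met fewer members than WT in the female lines, by 6.32 percentage points, and more in the male lines, by 19.2 points, although both KO lists were shorter than the WT lists. An alternative chosen after seeing the data limited each list to its 35041 regions of most reads. Female KO already had that number, so in the female pair only WT was cut and only its share could fall. H3K4me1 regions of female WT at members held a median of 86 reads, beside 95 over that list. The female order turned, with H3K4me1 at 39.6% of members in female WT and an unchanged 56.8% in female KO. In the male lines it met 36.1% in WT and 60.0% in KO. The higher share in male KO kept its direction under every alternative run, and the female order did not.

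**Figure D3:**
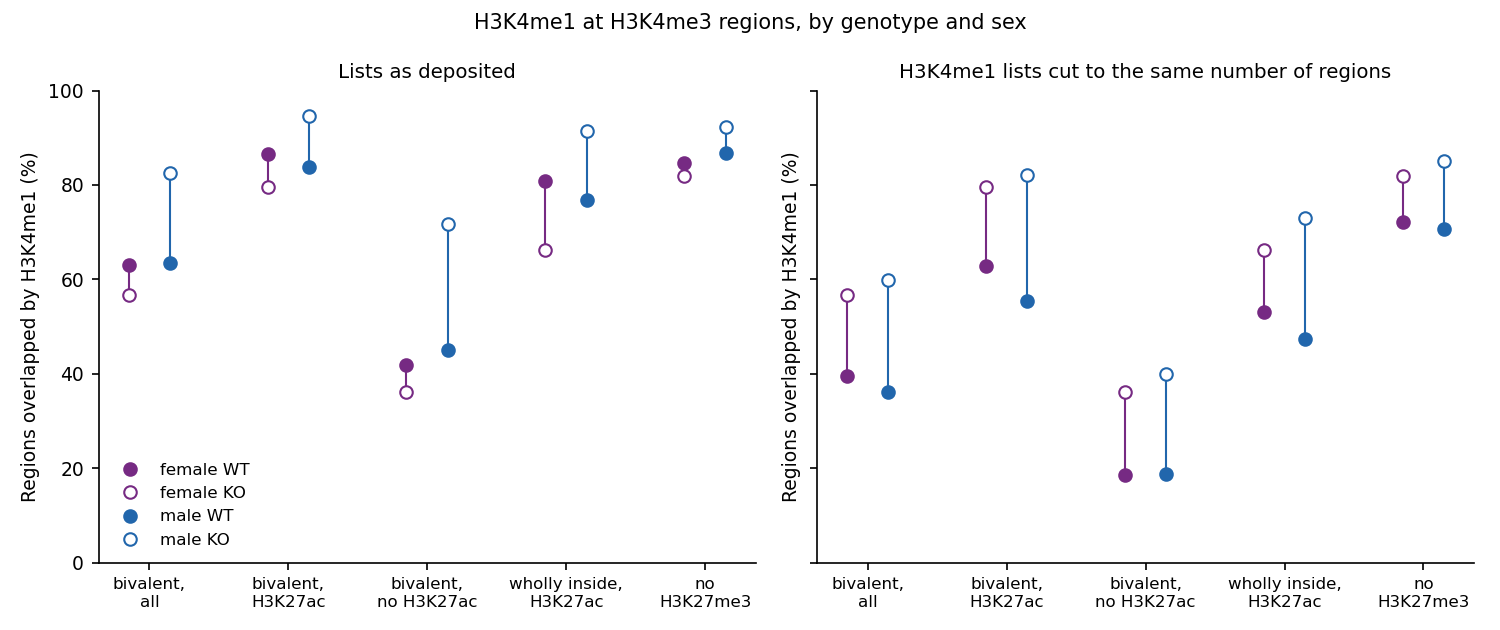
Share of regions overlapped by H3K4me1 (vertical axis, %) in WT (filled) and KO (open) lines of each sex, with the lists as deposited and with each limited to 35041 regions. Female KO already had that number and stayed whole. With the deposited lists bivalent regions go from 63.1% to 56.8% in the female and from 63.4% to 82.6% in the male lines, and with shortened lists KO is above WT in both sexes.

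The male difference was present with and without H3K27ac. Among members without H3K27ac, H3K4me1 met 45.1% [42.9 to 47.3] of 2067 members in male WT and 71.8% [69.8 to 73.7] in male KO, and 83.8% and 94.7% of the 1857 members with H3K27ac. H3K4me3 regions with neither H3K27me3 nor H3K27ac gave 46.1% [44.0 to 48.2] in male WT and 64.3% [62.2 to 66.3] in male KO. The difference was thus present in both kinds of region without H3K27ac, by 26.7 and 18.2 points. Members not listed with H3K4me1 in male WT had it in male KO in 70.1% [67.7 to 72.5] of 1436 cases, beside 70.8% over all H3K4me3 regions, a share near the background. With H3K27ac the same share was 88.0% [83.8 to 91.5] of 301 members and 86.0% [84.2 to 87.6] of other H3K4me3 regions. Without H3K27ac it was 65.4% [62.5 to 68.1] for members and 50.7% [47.8 to 53.6] for other H3K4me3 regions. Among short regions without H3K27ac it was 62.2% [59.0 to 65.2] and 49.2% [46.1 to 52.3]. The KO list exceeded the WT list at members on all 20 chromosomes in the male lines, by 6.01 points on chromosome 1 up to 56.0 points on chromosome 14, where male WT had its lowest autosomal share of 22.6%. In the female lines KO was lower on 16 chromosomes and higher on 5, 6, 11 and 14.

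Along the members wholly inside without H3K27ac, H3K4me1 peaked at the H3K4me3 region. At the centres of these 1803 members it was listed in 40.0% for female WT, 32.7% for female KO, 42.5% for male WT and 70.3% for male KO. At 2 kb to the right the values were 8.82%, 9.82%, 14.1% and 11%. The male lines thus differed over the H3K4me3 region, and at 2 kb male KO was not above male WT. The H3K4me1 regions of male KO at members that male WT lacked were short, with a median of 2200 bp and 82 reads. The whole list had 2800 bp and 125 reads. Male KO regions at all members without H3K27ac were alike, at 2200 bp and 84 reads, so shortness was not particular to those that male WT lacked.

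**Figure D4:**
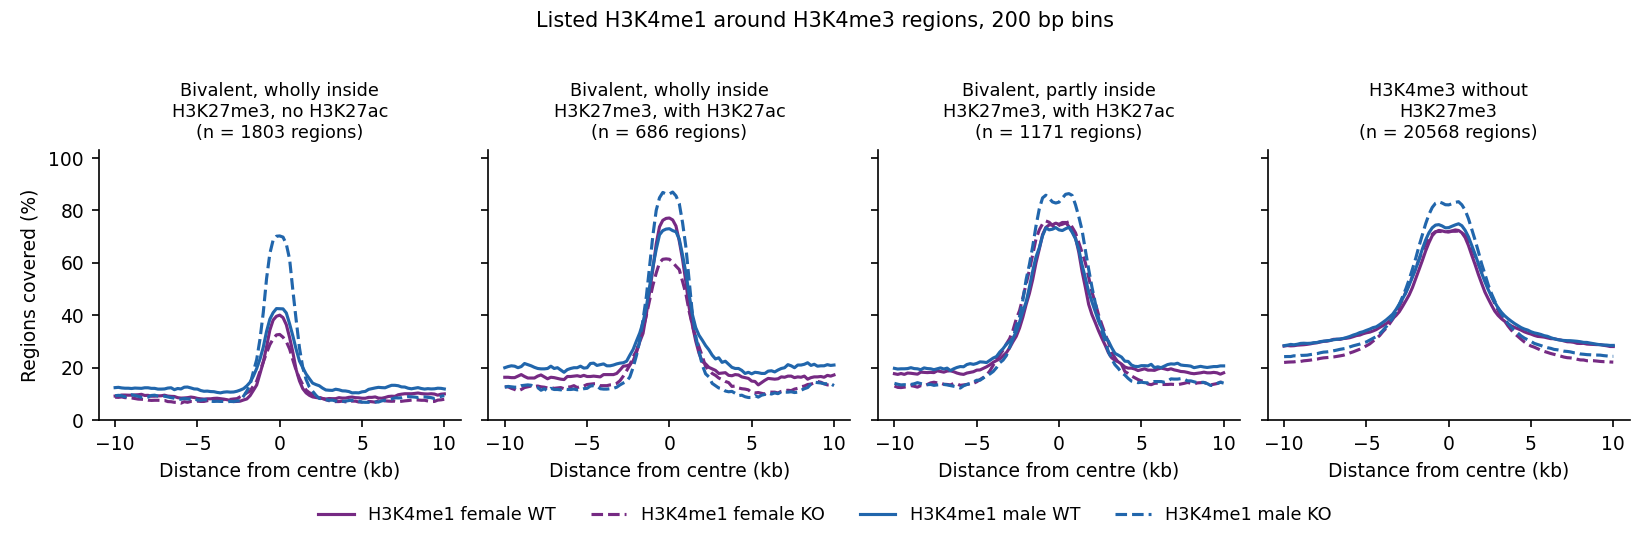
Share of regions covered by each of the 4 H3K4me1 lists (vertical axis, %) in 200 bp bins by distance from the centre of the region (horizontal axis, kb), by class. At members wholly inside H3K27me3 without H3K27ac male KO reaches 70.3% at the centre and the other 3 lists 32.7% to 42.5%, and all 4 lie at 14.1% or below at 2 kb.

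Of the members with H3K4me1 in female WT, 71.8% [70.0 to 73.6] also had it in female KO, beside 86.2% of all H3K4me3 regions and 88.3% [87.8 to 88.8] of those without H3K27me3. In the male lines 89.8% [88.6 to 91.0] kept it, beside 94.9% and 95.6%. Split by H3K27ac, the female values without H3K27ac were 51.4% [48.1 to 54.8] for members and 50.5% [47.1 to 53.9] for the others, and the intervals overlapped. With H3K27ac they were 82.8% [80.9 to 84.6] and 90.3% [89.8 to 90.7]. Members with H3K27ac wholly inside H3K27me3 kept H3K4me1 in 70.6% [66.6 to 74.3] of cases. Those partly inside kept it in 89.3% [87.3 to 91.1], close to the regions without H3K27me3.

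For the members wholly inside with H3K27ac the kept share was similar in each length class. It was 70.2% [62.2 to 77.4] of the short, 70.9% [65.7 to 75.7] of the middle and 70.0% [57.9 to 80.4] of the long ones. H3K4me3 regions with H3K27ac and without H3K27me3 gave 79.4%, 90.0% and 96.9% in the same classes. With the H3K4me1 lists limited to 35041 regions each, the members wholly inside gave 71.7% and the other H3K4me3 regions with H3K27ac 91.1%. In the upper 50% of each list by reads per kb both were lower, at 30.9% [21.1 to 42.1] of 81 members and 77.8% [76.7 to 78.8] of the others, and KO minus WT for these members was -28.6 points in place of -14.4. In the male lines the members wholly inside with H3K27ac kept H3K4me1 in 93.5% [91.1 to 95.5] of cases and the others in 96.5%. The share with H3K4me1 in female KO among members without it in female WT was 31.0% [28.6 to 33.4], beside 41.5% over all H3K4me3 regions. Split by H3K27ac, members and other H3K4me3 regions had overlapping intervals. With H3K27ac the share was 58.6% [52.2 to 64.8] for members and 61.8% [59.6 to 64.0] for the others. Without H3K27ac it was 25.2% [22.8 to 27.8] and 22.7% [20.4 to 25.1].

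Across all 4 H3K4me1 lists, 1499 members (38.2%) were listed in each, against 69.8% of the H3K4me3 regions without H3K27me3. In none were 299 members (7.62%), against 2.79% of those other regions and 3.56% of all H3K4me3 regions. Male KO was the sole list for 452 members (11.5%), against 2.79% of the other H3K4me3 regions and 4.19% of all. Among regions without H3K27ac, all 4 lists met 14.8% of members and 15.8% of the others, and male KO alone 19.5% and 14.4%. No list met 13.9% of these members and 21.5% of the others, so the order of that pattern turned. Of members with H3K27ac, male KO was the sole list for 2.64%. Patterns that followed genotype in both sexes were rarer. H3K4me1 in both WT and neither KO list was found at 94 members (2.40% [1.94 to 2.92]) and 1.64% [1.47 to 1.82] of the others. The reverse pattern held for 171 members (4.36% [3.74 to 5.04]) and 2.27% [2.07 to 2.48] of the others. Over all H3K4me3 regions the shares were 1.76% and 2.60%. Among regions without H3K27ac the first pattern was found at 2.90% of members and 4.36% of the others, so its order turned. The reverse pattern was found there at 5.85% and 5.72%, so members and others were alike.

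Of the 94, 72 lay wholly inside H3K27me3. The one with the most H3K4me3 reads was chr7:81695001-81701000, with 1108, and only 43.3% of its length lay inside. H3K4me1 regions there held 818 reads in female WT and 1925 in male WT. Another, chr1:74112001-74117000, with 623 H3K4me3 reads, lay in the domain with 5 members named above, where H3K4me1 regions held 7489 and 3727 reads. Of the 171 members with H3K4me1 in both KO lists alone, 125 lay wholly inside. The leading one, chr2:168565401-168568800 with 1708 H3K4me3 reads, had only 5.88% of its length inside. H3K4me1 regions there held 84 reads in female KO and 71 in male KO. H3K27ac of female WT overlapped 34 of the 94 and 50 of the 171. Over all H3K4me3 regions with the same patterns it overlapped 278 of 431 and 395 of 638. Of all members, 63.4% lay wholly inside H3K27me3 and 47.3% overlapped H3K27ac.

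KDM6A and MLL4 regions were rare at the members. KDM6A of WT met 30 of 3924 (0.765% [0.516 to 1.09]), beside 3.27% of all H3K4me3 regions and 3.75% [3.49 to 4.02] of those without H3K27me3. MLL4 of WT also met 30 (0.765%), beside 3.80% and 4.38%. The difference was present within each length class, with KDM6A at 0.383% of short, 1.15% of middle and 1.31% of long members and at 2.62%, 3.72% and 4.85% of the others. Regions with KDM6A or MLL4 of WT mostly carried H3K27ac, among members and others. Of the 30 members with KDM6A, 27 carried H3K27ac, as did 26 of the 30 with MLL4. Among the H3K4me3 regions without H3K27me3 it was 760 of 771 with KDM6A and 890 of 901 with MLL4. Among regions with H3K27ac KDM6A met 1.45% [0.960 to 2.11] of members and 4.12% [3.84 to 4.42] of the others. Among those without, the intervals overlapped, at 0.145% [0.0299 to 0.424] and 0.516% [0.258 to 0.921].

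In the KO line, where by its label no KDM6A should be bound, KDM6A regions met 89 members (2.27%), beside 6.11% of all H3K4me3 regions. MLL4 of KO met 168 (4.28% [3.67 to 4.96]), beside 18.7%. The WT share was thus not above the KO background of this antibody, whose KO list held 5961 regions and WT list 2847. With both lists shortened to 2130 regions the shares of members were 0.663% [0.433 to 0.969] in WT and 0.790% [0.537 to 1.12] in KO. In KO both antibodies met mostly members at the edge of H3K27me3. MLL4 met 13.5% [11.4 to 15.8] of those less than 50% inside and 1.0% [0.651 to 1.48] of those wholly inside, and KDM6A 6.78% and 0.522%. Binding lists were not even across the genome. Chromosome 15 held 22.0% of the KDM6A regions of WT and 19 held 17.6%, where they held 4.21% and 3.11% of H3K4me3 regions. In KO chromosomes 1, 6 and 17 were in surplus, with 25.4%, 16.2% and 10.8% of the MLL4 regions. Without those chromosomes KDM6A of WT met 0.497% of members and 3.09% of the others, and MLL4 of KO 2.02% and 17.1%.

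KDM6A or MLL4 of WT was listed at 50 members (1.27%) and both at 10 (0.255%), beside 5.99% and 1.08% of all H3K4me3 regions. The leading one of the 10, chr19:10309001-10315800, held 1782 H3K4me3 reads, with KDM6A and MLL4 regions of 197 and 85 reads and an H3K27ac region of 796. H3K4me1 regions there held 1952 reads in female WT, 77 in female KO and 1738 in male WT, and male KO listed none. At chr13:3358001-3362000, with 1070 H3K4me3 reads, KDM6A held 45 and MLL4 31, and H3K4me1 was listed with 183 reads in female WT, 131 in male WT and 114 in male KO and not in female KO. At chr7:106499201-106502400, with 514 H3K4me3 reads, H3K4me1 was listed with 501 reads in female WT and 147 in female KO and in neither male list. These 3 positions thus differed in which H3K4me1 lists met them, and only the female WT list met all 3.

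**Figure D5:**
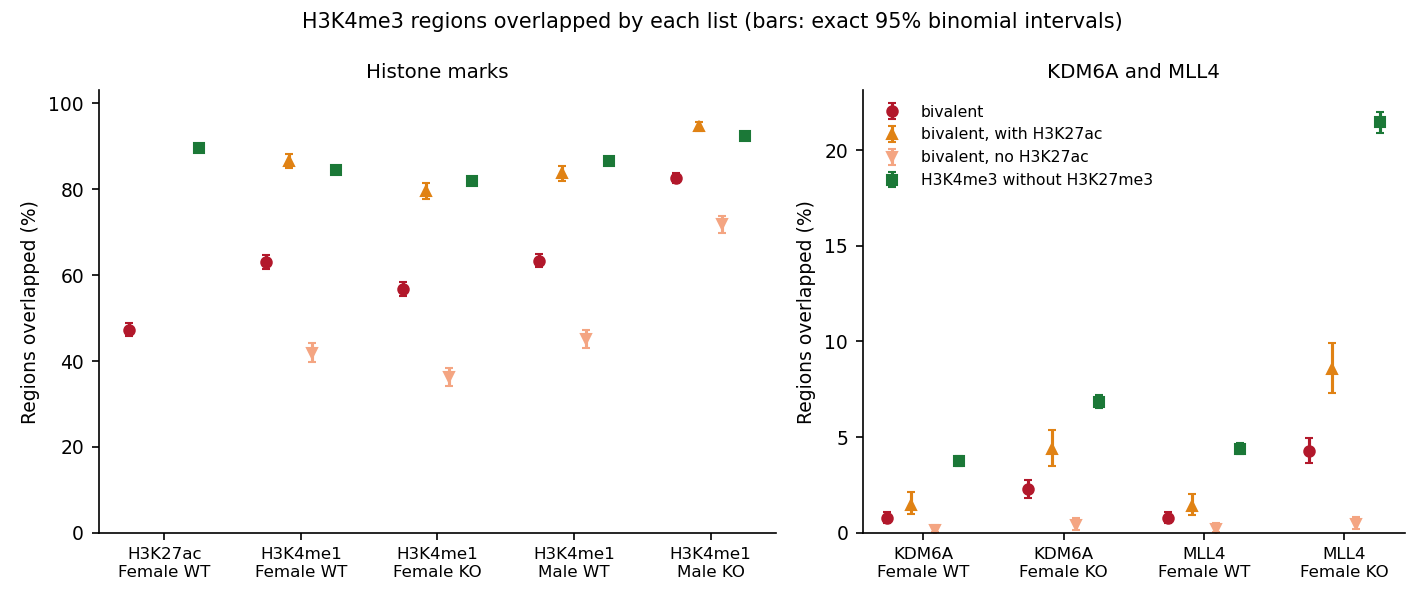
Share of regions overlapped by each list (vertical axis, %) for bivalent regions, for their parts with and without H3K27ac, and for H3K4me3 regions without H3K27me3, with exact 95% binomial intervals over regions (the parts are not drawn for H3K27ac, which defines them). Bivalent regions lie below the H3K4me3 regions without H3K27me3 in all 9 lists, for example 47.3% against 89.6% for H3K27ac. Those with H3K27ac lie at 86.6% for H3K4me1 of female WT and 94.7% for male KO. The H3K4me3 regions without H3K27me3 that carry H3K27ac, not drawn apart, had higher shares there, 89.7% and 95.6%. Without H3K27ac, bivalent regions lay at 41.9%, 36.2%, 45.1% and 71.8% for H3K4me1 of female WT, female KO, male WT and male KO. The other H3K4me3 regions without H3K27ac, also not drawn apart, lay at 40.9%, 34.1%, 46.1% and 64.3%. In that part bivalent regions were thus lower for male WT alone.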

How the data were processed

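The 12 samples were 11 chromatin immunoprecipitation libraries and 1 female WT library titled as input with IgG in its antibody field. The 11 region lists of the former were used, and the input was not analysed here. The submitters' processing notes name mm9, SICER 1 and Bowtie 1.1.2 without a role for each. The deposited lists give chromosome, start, end and a whole number without a header, read here as a count of reads per region because of its values. Library depth, threshold and control are not given in the sources used here, so counts served to rank regions within a list. Lists were called per library and may miss weaker signal. Borders lay on steps of 200 bp, and the smallest gap between regions was 400 bp, 600 bp for H3K27ac and 800 bp for H3K27me3.

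Overlap meant at least 1 bp. H3K4me3 regions were divided by length at 1800 and 3400 bp. Groups came from the titles, with 1 library each, so no test was run. Named regions were the 5 with the most H3K4me3 reads per class, and the 5 H3K27me3 regions with the most members. The members, lists and rules were chosen with earlier results of these data known. Calculations (scipy 1.17.1, pandas 2.3.3 and numpy 2.4.6 under Python 3.11.15) were tested on simulated data and checked against bedtools 2.31.1. Alternatives were an overlap of 50%, the upper 50% of each list by reads per kb, merged neighbours, autosomes, fewer chromosomes and lists of equal number, the last chosen after seeing the data. The gene lists considered were not used, since the reference table at hand is of GRCm38.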

Additional observations from a re-analysis of the deposited data

Results flagged for a closer look

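H3K4me1 by genotype went in opposite directions in the 2 sexes, and with 1 library per group the difference between sexes was not tested. At bivalent regions the share with H3K4me1 in KO minus that in WT was -6.32 percentage points in the female and 19.2 in the male lines. With H3K27ac the differences were -7.00 and 10.9 points, without it -5.71 and 26.7 points, and for members wholly inside H3K27me3 with H3K27ac -14.4 and 14.6 points. H3K4me3 regions without H3K27me3 showed opposite signs too, at -2.78 and 5.68 points. With the H3K4me1 lists limited to 35041 regions each, both sexes had a higher share in KO in all of these sets. In the female pair this cut the WT list alone, since female KO already had that number.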

How the results depend on the processing

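With at least 50% of the H3K4me3 region covered, 12.0% of H3K4me3 regions were bivalent, 29.9% of them had H3K27ac and 84.3% lay wholly inside H3K27me3. H3K4me1 then met 52.6% in female WT, 44.3% in female KO, 53.6% in male WT and 76.5% in male KO, or KO minus WT of -8.30 and 22.9 points. Kept shares were 58.9% (female) and 84.2% (male), shares of KO without WT 28.0% and 67.6%, KDM6A 0.305% (WT) and 0.407% (KO), and MLL4 0.271% and 0.542%. In the upper 50% of each list by reads per kb the values were 12.6% bivalent, 49.0% with H3K27ac and 44.5% wholly inside, and H3K4me1 met 48.1%, 35.4%, 41.3% and 58.6% in the same order (KO minus WT -12.7 and 17.3 points). There 48.0% and 76.6% kept it, 23.8% and 46.0% had it in KO without WT, KDM6A of KO met 1.62% and MLL4 of WT 0.390%, and the female KO minus WT at H3K4me3 regions without H3K27me3 reversed to 1.91 points. With H3K4me3 regions within 5 kb merged, 17.8% were bivalent, 51.3% had H3K27ac and 58.1% lay wholly inside. H3K4me1 met 64.9% in female WT, 65.3% in male WT and 83.9% in male KO (KO minus WT -6.74 and 18.6 points), 73.6% kept it in the female lines, KDM6A of KO met 2.84%, and MLL4 met 1.26% (WT) and 5.78% (KO). Without chromosomes 1, 6, 15, 17 and 19, 15.2% were bivalent, H3K4me1 of male WT met 60.3% (male KO minus WT 21.6 points), KDM6A 0.497% (WT) and 0.851% (KO), and MLL4 of KO 2.02%. On autosomes alone no share of the bivalent regions moved out of its interval. Limiting the H3K4me1 lists to 35041 regions each and the KDM6A and MLL4 lists to 2130 was chosen after seeing the data. The H3K4me1 list of female KO and the MLL4 list of WT already had those numbers and stayed whole. H3K4me1 then met 39.6% in female WT, 36.1% in male WT and 60.0% in male KO, kept shares were 77.0% and 81.7%, shares of KO without WT 43.5% and 47.7%, KDM6A of KO met 0.790% and MLL4 of KO 0.535%. The female KO minus WT reversed to 17.2 points, and to 16.8 with H3K27ac, 17.6 without it, 13.3 wholly inside with H3K27ac and 9.75 at H3K4me3 regions without H3K27me3, and the male value was 23.9 points. Shortened lists have fewer regions by construction, and otherwise the cause was not tested. Of the further values, for subsets and other H3K4me3 regions, 170 moved out of their interval, 143 did not and 5 are the reversals given above. No paired analysis was possible because each group held 1 library and no result came from a test. Depth per library was not given, so a region that is not listed may hold signal below the threshold.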
